A study of Mus musculus with 7 samples.

Results

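Mesothelial cells form the thin sheet that covers the lung surface and lines the pleural cavity. They secrete lubricating glycoproteins, and in the embryo they send growth factors and retinoic acid signals to the lung beneath. Upk3b, Lrrn4, Wt1 and Msln are widely used to mark this sheet, and they were followed here in RNA from lung endothelial cells, the cells that line the vessels. The 4 genes were chosen by symbol in the platform annotation, through probe sets with a single symbol. Each gene had 1 such probe set, so no choice among probe sets was needed. They are 4 of 16637 genes tested, and all 4 passed the filter that left out the dimmest 25% of genes. Lrrn4 passed it only narrowly.

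The study compared 3 samples labelled wild-type with 4 labelled Sash1-knockout, each hybridised to its own 1-colour array. All came from mouse embryos on a C57BL/6 background at E18.5, shortly before birth. Knockout embryos were Sash1-/-, with no Cre driver named in the labels, and their wild-type littermates served as controls. Every sample, of either label, held live lung cells sorted for CD31 (endothelium) and against CD45 (leukocytes) and CD326 (epithelium). No mesothelial antigen was part of the sort. The labels do not say which exons of Sash1 were removed, nor whether each sample was 1 embryo or a pool. The p-values therefore measure only the spread between these samples, which may be technical.

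Values are log2 signals, so a difference of 1 is a doubling, and differences are the knockout-labelled mean minus the wild-type-labelled mean. Sash1 measured 9.02, 8.73 and 8.33 on arrays labelled wild-type 1 to 3, and 8.29, 8.21, 8.68 and 8.13 on arrays labelled knockout 1 to 4. Its labels overlapped, wild-type 3 lying below knockout 3, so arrays are called by the label they carry, and any direction given depends on those labels being right. Over the genes tested, array medians lay between 5.30 and 5.41. Pecam1, the gene of CD31, measured 11.03 to 11.21 on all 7 arrays. The mean of 10 endothelial genes was 9.92 to 10.10. Some genes of the cell types sorted against were bright too. The epithelial gene Sftpc measured 10.2 on knockout 4 and 11.86 to 12 on the other 6 arrays, above Pecam1 on those. Over the 7 arrays the epithelial gene Ager averaged 9.89 and the leukocyte gene Lyz2 9.35. These values thus do not show that the samples held endothelial RNA alone. The array labelled knockout 4 was lowest of all 7 for Epcam (CD326) at 4.06 and Ptprc (CD45) at 3.51, while the other 6 arrays measured at least 4.65 and 4.45. Since the samples are bulk RNA, fewer mesothelial cells and less RNA per cell cannot be told apart in any value below.

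Of the 4 markers, 0 passed limma's test at a Benjamini-Hochberg adjusted p of 0.05, and 0 of all 16637 genes did (0%). At an unadjusted p under 0.05, limma held 1 of the 4 markers, Upk3b, against 556 genes (3.34%) over the whole comparison. Of all genes, 0.962% were lower on the arrays labelled knockout at that threshold, as Upk3b was, and 2.38% were higher. The signs were split. Upk3b and Lrrn4 had lower means on the arrays labelled knockout, and Wt1 and Msln had higher ones. Their median difference was -0.12, and that of all genes tested was 0.015. Over the 4 markers 0 had labels that did not overlap, a state found in 2.45% of all genes.

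**Figure D1:**
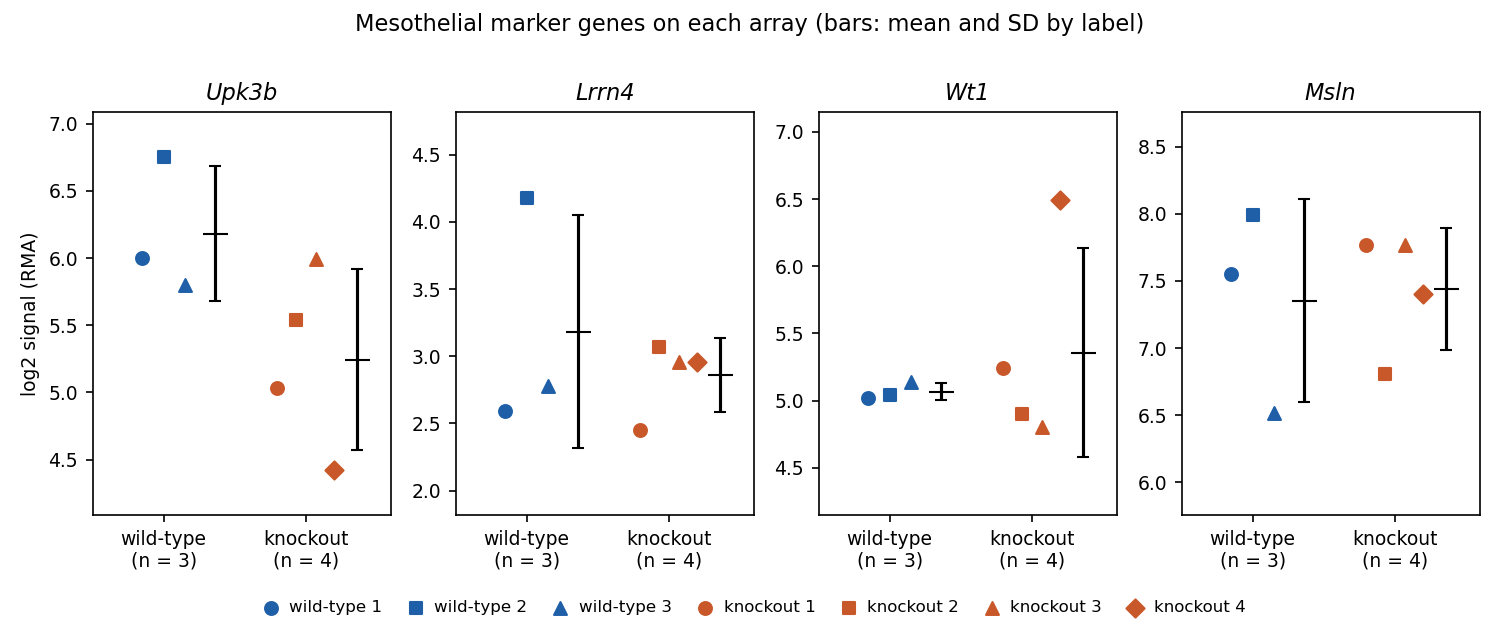
Log2 signal (vertical axis, a span of 3 units in each panel) of Upk3b, Lrrn4, Wt1 and Msln on the 3 arrays labelled wild-type (blue) and the 4 labelled knockout (orange), with black bars for the mean and SD by label. Upk3b is lowest on knockout 4 (4.42), the same array on which Wt1 is highest (6.49), and Lrrn4 is highest on wild-type 2 (4.18).

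Upk3b encodes uroplakin 3b, a membrane glycoprotein of the mesothelial surface and of the bladder lining. Its log2 signal was 6.00, 6.75 and 5.80 on arrays labelled wild-type 1 to 3. On arrays labelled knockout 1 to 4 it was 5.03, 5.54, 5.99 and 4.42. Of the 4 knockout-labelled values 3 lay below every wild-type-labelled one, and knockout 3 lay between wild-type 3 and wild-type 1. The means were 6.18 ± 0.50 (SD, n = 3) and 5.25 ± 0.68 (SD, n = 4). They differed by -0.94 (SE 0.40), with a 95% confidence interval from -1.87 to -0.0074. On the linear scale the knockout-labelled mean was 52.2% of the other, within 27.4% to 99.5%. It did not pass the test, with an unadjusted p of 0.0486 and an adjusted p of 0.971 in limma. An exact two-sided permutation test over the 35 splits of the arrays gave p = 0.114, where 0.0286 is the smallest p this design allows. Only 0.240% of the genes tested had a difference of larger size. Upk3b also varied more over the 7 arrays (SD 0.75) than 98.8% of them. The difference stayed negative when any single array was left out, from -0.66 without wild-type 2 to -1.19 without knockout 3.

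Lrrn4, a leucine-rich repeat membrane protein of the neuronal family that also marks mesothelium, was close to the filter level of 2.98. Its log2 signal was 2.59, 4.18 and 2.78 on arrays labelled wild-type 1 to 3. It was 2.45, 3.07, 2.96 and 2.96 on arrays labelled knockout 1 to 4. The array labelled wild-type 2 stood 1 log2 unit or more above the rest, and the labels overlapped. Lrrn4 passed the filter by 0.016, and only wild-type 2 and knockout 2 lay above that level. Its passing thus rested on wild-type 2, the array that also raised the wild-type-labelled mean. The means were 3.18 ± 0.87 (SD, n = 3) and 2.86 ± 0.28 (SD, n = 4). They differed by -0.32 (SE 0.38, 95% confidence interval -1.22 to 0.58, adjusted p = 0.971 in limma). Without the array labelled wild-type 2 the sign turned, to 0.18.

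Wt1 encodes the zinc finger transcription factor of the Wilms tumour locus, which acts in embryonic mesothelium and has also been described in some blood vessels. It measured 5.02, 5.04 and 5.14 on arrays labelled wild-type 1 to 3, a spread of 0.064 (SD). It measured 5.24, 4.90, 4.80 and 6.49 on arrays labelled knockout 1 to 4. The array labelled knockout 4 was higher than the other 6, which lay between 4.80 and 5.24. The means were 5.07 ± 0.064 (SD, n = 3) and 5.36 ± 0.78 (SD, n = 4). The difference was 0.29 (SE 0.39, 95% confidence interval -0.63 to 1.21, adjusted p = 0.972 in limma). It turned to -0.087 without the array labelled knockout 4. Wt1os, the antisense transcript beside Wt1, measured 2.94 to 3.30 over the 7 arrays and 3.10 on knockout 4. The sources used here do not say on which strand the probes read.

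Msln encodes mesothelin, a lipid-anchored surface protein that binds the mucin MUC16. It measured 7.55, 7.99 and 6.52 on arrays labelled wild-type 1 to 3. It measured 7.77, 6.81, 7.77 and 7.40 on arrays labelled knockout 1 to 4. Wild-type 3 and knockout 2 were the lowest arrays, and values of the 2 labels were interleaved. The means were 7.35 ± 0.75 (SD, n = 3) and 7.44 ± 0.45 (SD, n = 4). The difference was 0.084 (SE 0.38, 95% confidence interval -0.82 to 0.99, adjusted p = 0.997 in limma). On the linear scale this interval runs from 56.7% to 198% of the mean under the wild-type label. The sign turned without wild-type 3 (-0.33), and without knockout 1 or knockout 3 (-0.027 each).

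**Figure D2:**
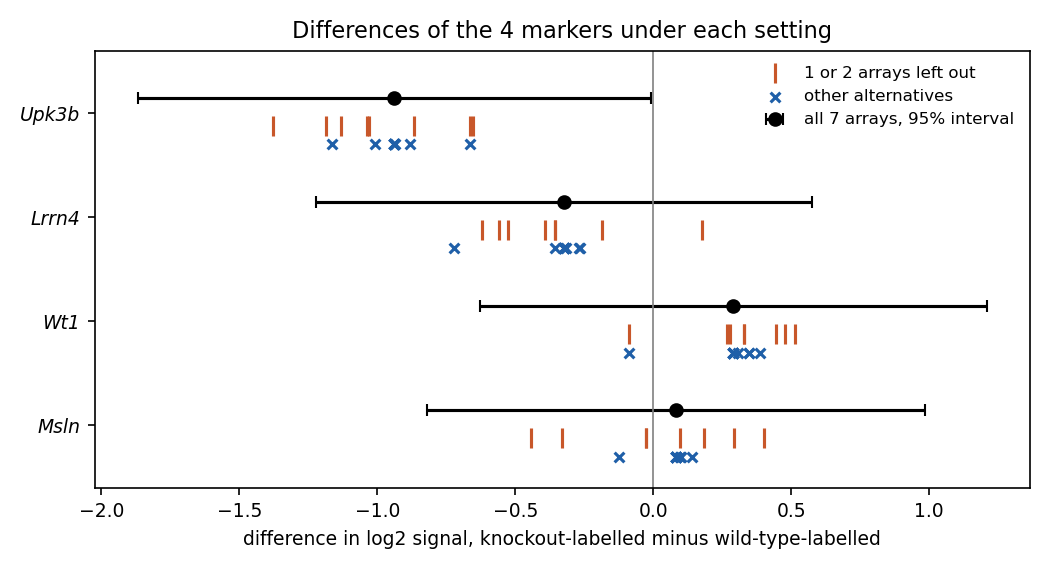
Difference in log2 signal, knockout-labelled minus wild-type-labelled (horizontal axis), for each marker with all 7 arrays (black, 95% confidence interval), with 1 or 2 arrays left out (orange) and under the other alternatives (blue). Upk3b lies below 0 under every alternative drawn, between -1.38 and -0.66, while the other 3 markers fall on both sides of 0. Settings of the filter, moderation, probe set rule and permutation test cannot change these differences, so their marks repeat the black value.

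The markers were also set against each other, to see whether the arrays took the same order for each. Over the 7 arrays 6 pairs were compared, with exact permutation tests adjusted over the 6. Upk3b and Wt1 ran opposite, with Pearson's r at -0.76 (exact p = 0.0462, adjusted 0.277) and Spearman's rho at -0.57 (exact p = 0.200, adjusted 0.793). Without wild-type 2 and knockout 4, the arrays farthest from the median of Upk3b, r was -0.63 over 5 arrays. Upk3b and Lrrn4 gave r = 0.59 (exact p = 0.181, adjusted 0.543) and rho = 0.29 (exact p = 0.529, adjusted 0.793), and r was 0.41 without the same arrays. The other 4 pairs had r between -0.093 and 0.31. None of the 6 pairs passed after adjustment. The markers thus gave no common order of the arrays that these tests could show.

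Further genes described in mesothelium were 15 in number, of which 13 passed the filter. Calb2 (calretinin) and Tbx18, a transcription factor of embryonic mesothelium, were below it, at means of 2.11 and 2.50. Of the 13, 7 had negative and 6 positive differences, where 45.6% of all genes tested were negative. Their median was -0.01, and 0 of 13 passed limma's test, adjusted or unadjusted. Muc16, the mucin to which mesothelin binds, had the difference farthest from 0. It measured 3.25, 4.50 and 3.63 on arrays labelled wild-type 1 to 3, and 2.36, 2.61, 4.07 and 2.37 on arrays labelled knockout 1 to 4. As for Upk3b, 3 knockout-labelled arrays lay below all wild-type-labelled ones, and knockout 3 did not. For Muc16 those 3 values were also below the filter level of 2.98. It passed the filter through the arrays labelled wild-type and knockout 3, so its difference and this likeness are limited by low signal. The Muc16 difference was -0.94 (95% confidence interval -2.08 to 0.20, adjusted p = 0.971 in limma), and -0.59 without wild-type 2. Gpm6a, a membrane glycoprotein shared with neurons, differed by -0.48 (-1.46 to 0.49), and by -0.27 without wild-type 2, -0.23 without knockout 2 and -0.79 without knockout 4. It was lowest on knockout 2 (3.85) and highest on knockout 4 (5.55), beside 5.53 on wild-type 2.

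The other further genes had differences between -0.16 and 0.16. Among signalling genes, Aldh1a2, which makes retinoic acid, differed by 0.027 (95% confidence interval -0.71 to 0.76). Fgf9, a growth factor that embryonic lung mesothelium sends to the mesenchyme, differed by 0.16 (-0.14 to 0.46), and the Wnt agonist Rspo1 by 0.02 (-0.35 to 0.39). Bnc1, the zinc finger protein basonuclin, differed by -0.15 (-0.42 to 0.12). The cytoskeletal and surface genes Krt19 and Pdpn, which alveolar epithelium also expresses, differed by 0.14 (-0.55 to 0.82) and 0.15 (-0.67 to 0.97). Both were lowest on wild-type 3, at 5.49 and 6.35, as Msln was. Cldn15, a tight junction claudin, differed by 0.13, Nkain4 by -0.069, the sulfatase gene Sulf1 by -0.04 and the matrix gene Efemp1 by -0.16. None of these values passed the test.

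**Figure D3:**
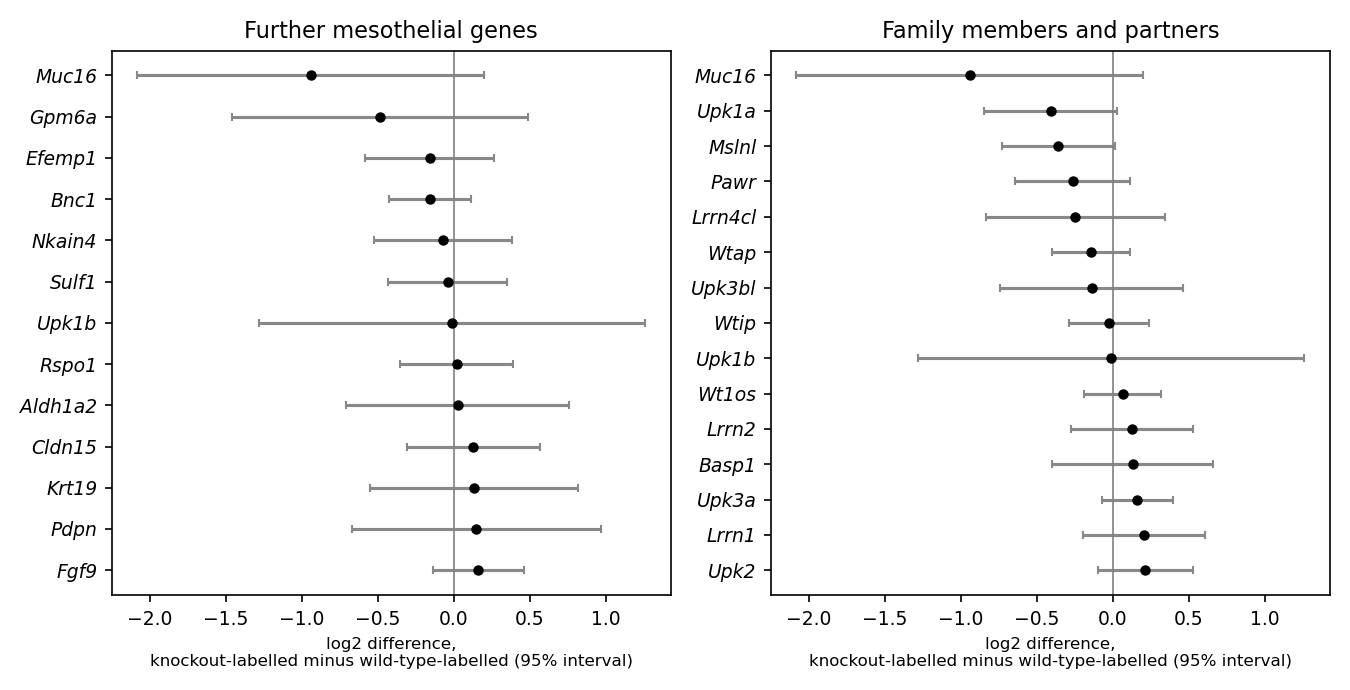
Difference in log2 signal, knockout-labelled minus wild-type-labelled (horizontal axis), with its 95% confidence interval, for the 13 tested further mesothelial genes (left) and the 15 tested family members and partners of the markers (right). Every interval includes 0, and Muc16, which is in both lists, lies farthest from it at -0.94. Muc16 was below the filter level on most arrays labelled knockout.

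Relatives and binding partners of the markers were 16 genes, of which 15 passed the filter (Lrrn3, at a mean of 2.91, did not). Of these, 9 had negative and 6 positive differences, where 45.6% of all genes tested were negative. The median was -0.023, and 0 passed limma's test, adjusted or unadjusted. Muc16 and Upk1b are in this list too. Uroplakins build rigid plaques in the bladder lining, where tetraspanin uroplakins (Upk1a, Upk1b) pair with Upk2 and Upk3a. Upk1b had values of 5.33, 5.87 and 4.70 on arrays labelled wild-type 1 to 3. On arrays labelled knockout 1 to 4 it had 4.84, 5.25, 6.66 and 4.41, with knockout 3 the highest array. Its difference was -0.01 (95% confidence interval -1.28 to 1.26), although like Upk3b it was lowest on knockout 4. Upk1a differed by -0.41 (-0.84 to 0.027), Upk2 by 0.22 (-0.097 to 0.53), Upk3a by 0.16 (-0.070 to 0.40) and Upk3bl by -0.14 (-0.74 to 0.46).

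Within the neuronal leucine-rich repeat family, Lrrn1 differed by 0.21 and Lrrn2 by 0.13. Lrrn4cl, a gene named for its likeness to Lrrn4, differed by -0.25 (95% confidence interval -0.83 to 0.34). Mslnl, the mesothelin-like gene, measured 4.89, 5.04 and 4.64 on arrays labelled wild-type 1 to 3 and 4.57, 4.15, 4.64 and 4.64 on arrays labelled knockout 1 to 4. Its difference was -0.36 (-0.73 to 0.015, adjusted p = 0.971 in limma), while Msln itself differed by 0.084. Among proteins named for binding WT1, Wtap, a subunit of the RNA methylation complex, differed by -0.14 and Wtip by -0.023. The corepressor gene Basp1 differed by 0.13, and Pawr (PAR-4) by -0.26 (-0.64 to 0.11).

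The arrays were then compared across the 4 markers and 13 further genes together, a count made after their values were seen. Of these 17 genes, 6 were highest on wild-type 2, 5 on knockout 3 and 4 on knockout 4, and 1 was tied. Over all genes tested these arrays were highest for 9.75%, 12.7% and 16.4%. Wild-type 3 and knockout 4 were each lowest for 5 of the 17, where 16.3% and 15.3% of all genes were lowest. The median deviation of the 17 from their own means was 0.30 on wild-type 2 and 0.25 on knockout 3, and -0.22 on wild-type 3 and -0.16 on knockout 2. High and low arrays thus occurred under both labels. In this set, 12 of 13 further genes had negative differences without wild-type 3, and 3 of 13 without wild-type 2, against 7 with all arrays. Over all genes tested the negative share was 48.5%, 46.6% and 45.6% in these fits. Sash1 on wild-type 3 (8.33) was below that on knockout 3 (8.68) only, and above that on the other arrays labelled knockout. Without both arrays of this pair, 12 of 13 were negative, beside 48.5% of all genes. By their median deviations, wild-type 3 was the lowest array for the 17 genes and knockout 3 was high. Leaving them out by itself moves these differences down, so this count is no separate evidence of a lower level. In that fit 0 of 13 passed limma's adjusted test and 1 had an unadjusted p under 0.05. Over all genes 1779 of 16637 did so in that fit, against 556 of 16637 with all arrays. Over all genes wild-type 3 and knockout 3 tended to deviate from their label means in opposite directions (r = -0.55). Leaving out both can by itself raise this count, so it is no separate evidence of a difference between the labels.

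**Figure D4:**
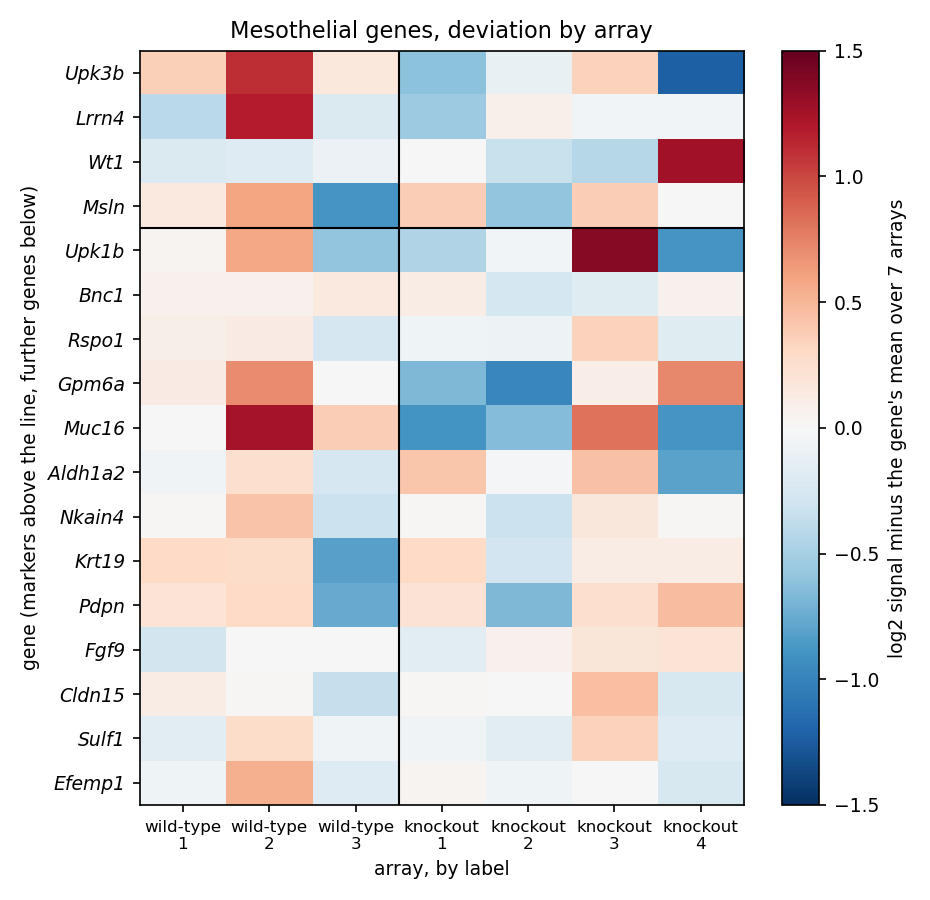
Log2 signal minus the gene's mean over the 7 arrays (colour) for the 4 markers (above the line) and the 13 further mesothelial genes (below), with arrays labelled wild-type left of the vertical line and knockout right of it. Wild-type 2 and knockout 3 hold the most highest values (6 and 5 of 17 genes), and knockout 4 is low for Upk3b and high for Wt1.

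Markers of other cell types were read beside these values. The mean level of 17 lung epithelial genes was 8.08, 7.73 and 6.99 on arrays labelled wild-type 1 to 3. It was 7.78, 7.22, 7.88 and 6.45 on arrays labelled knockout 1 to 4. In that list 14 of 17 differences were negative, with 0 passing, where 45.6% of all genes tested were negative. Genes of a list were measured on the same arrays, so the signs counted here and in the lists below are not independent. Knockout 4, the array of lowest Upk3b, was thus lowest in this list also, and the lower arrays for Msln, wild-type 3 and knockout 2, came next. The 11 leukocyte genes averaged 5.14 to 5.74 under the wild-type label and 5.44, 5.12, 5.53 and 4.30 on knockout 1 to 4, with 10 of 11 negative. The 12 fibroblast and mural cell genes averaged 6.83 to 7.25 and 6.74 to 7.52, with 2 of 12 negative. Immediate early and dissociation stress genes averaged 8.80, 8.60 and 7.25 on wild-type 1 to 3, and 8.50, 7.14, 9.17 and 6.40 on knockout 1 to 4, with 9 of 11 negative. Their part in the mesothelial values was not tested. The erythroid list had 1 gene with a usable probe set among 5, Slc4a1, which measured 4.48 to 5.18.

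Heart muscle lies beside the lung and its own covering, the epicardium, is a mesothelium. The 9 cardiac muscle genes averaged 5.41, 6.08 and 5.50 on arrays labelled wild-type 1 to 3. They averaged 5.37, 5.41, 5.41 and 5.22 on arrays labelled knockout 1 to 4. Of their differences 7 of 9 were negative, beside 45.6% of all genes tested. By the list average wild-type 2 was the highest array, as it was for Upk3b, Lrrn4 and Msln. Wt1 differed in this, being highest on knockout 4. Myl7, the atrial myosin light chain, measured 6.90, 7.95 and 6.72 on arrays labelled wild-type 1 to 3. It measured 5.43, 6.24, 6.71 and 5.33 on arrays labelled knockout 1 to 4, so the labels were separated by 0.01. The Myl7 difference was -1.26 (adjusted p = 0.971 in limma). Actc1, cardiac actin, was highest on knockout 3 (8.36), and Ryr2, the calcium release channel, was lowest there (4.56), so the cardiac genes did not share 1 order. The part of heart tissue in the Upk3b values was not tested.

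Genes whose pattern was most like each marker were listed by Pearson's r over the 7 arrays, among 14764 named genes. These are the highest of many values from few arrays, which share overall differences between arrays, and they are given as a description. For Upk3b they were Tmem183a (0.99), Zfand2a (0.98), Myl7 (0.97), Trp53inp1 (0.97) and Cdc42se2 (0.96), and 61 genes exceeded 0.9. For Lrrn4 they were Themis, Spats2, Lgr4, Snai3 and Sytl1 (0.96 to 0.98), all highest on wild-type 2. Their ranges ran from 0.10 for Sytl1 to 1.04 for Themis, beside 1.73 for Lrrn4. For Wt1 they were Rab1a, Gal3st2c, Pdap1, Clnk and Kctd8 (0.98 to 0.99), and 192 genes exceeded 0.9. All 5 were highest on knockout 4, but their range was small, from 0.11 for Rab1a to 0.47 for Clnk, beside 1.69 for Wt1. For Msln they were Galnt15, Klf5, Nptx2, Grem1 and Ilvbl (0.97 to 0.98), with ranges from 0.18 for Ilvbl to 1.26 for Klf5. Of these, Klf5, a transcription factor of epithelia, measured 7.73, 7.95 and 6.69 on arrays labelled wild-type 1 to 3 and 7.71, 6.96, 7.60 and 7.36 on knockout 1 to 4.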

How the data were processed

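Samples whose RNA integrity number exceeded 7 were amplified with a kit for small inputs, per the labels' protocols. The authors deposited 1 log2 value per probe set and array, made with RMA in Affymetrix Expression Console 1.1, per the submitters' processing notes. No label states the log2 scale, which rests on the range of the values. Of 41345 probe sets, 23521 had 1 gene symbol, 1814 several and 16010 none listed, and 99.2% of the first were found in a RefSeq table (GRCm38.p6), used for names only. The brightest probe set stood for each of 22180 genes, and the dimmest 25% (5543 genes, below 2.98) were left out. Labels were compared with limma 3.58.1 (lmFit, eBayes, two-sided, Benjamini-Hochberg) in R 4.3.3, checked on simulated data. Arrays limit precision: the median 95% confidence half-width was 0.345 log2 units. Members and lists were chosen with earlier results of these data known. Named genes were the markers, both mesothelium-related lists, the 3 brightest genes of other lists where needed, and per marker the 5 genes of highest r. Alternatives were other filters, centring, quantile normalization, moderation, array weights, probe set rules, replicate blocks, single arrays left out, an exact permutation test and, chosen after seeing the data, leaving out wild-type 3 and knockout 3.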

Additional observations from a re-analysis of the deposited data

Results flagged for a closer look

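Among the 4 arrays labelled knockout, 1 array stood apart from the other 3 by Dixon's criterion for 7 of 52 named genes (13.5%). The share over all 16637 genes tested was 15.8%, and chance in normal samples gives about 1 in 20 groups. That reference holds for values without ties. Some genes here had the same value on several arrays, as Upk2 did, and the criterion is then met more easily. The shares therefore cannot be set against it. Knockout 4 stood apart for Upk1a at 2.95 (others 3.41 to 3.43), Upk2 at 4.64 (others 4.22), Sftpc at 10.2 (others 11.86 to 12), Ptprc at 3.51 (others 4.57 to 4.72) and Epcam at 4.06 (others 5.14 to 5.19). Knockout 3 stood apart for Muc16 at 4.07, with the others at 2.36 to 2.61. Knockout 2 stood apart for Mslnl at 4.15, with the others at 4.57 to 4.64. Of the 4 markers none reached the criterion, which divides the gap to the nearest other array by the range of the group. This share was 0.823 for Lrrn4 on knockout 1 and 0.740 for Wt1 on knockout 4. Groups of 3, such as the arrays labelled wild-type, were not examined in this way.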

How the results depend on the processing

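The count of genes passing limma's adjusted test was 0 under every alternative. Upk3b kept a negative difference in all 19 alternatives (-1.38 to -0.66, adjusted p 0.359 to 1), and neither it nor another marker passed in any. Alternatives that changed only the filter, moderation, probe set rule or test left each tested marker's difference as reported (-0.94 for Upk3b). No sign could turn in those. Lrrn4 ranged from -0.62 to 0.18 with 1 array left out, was -0.72 with array weights, and could not be tested with the dimmest 50% of genes left out. Wt1 ranged from -0.087 to 0.48 with 1 array left out, and Msln from -0.33 to 0.40. Msln was also -0.12 with array weights and -0.44 without both wild-type 3 and knockout 3; the cause was not tested. With the replicate number as a fixed replicate block, Wt1 was -0.087, the value without knockout 4, since no wild-type array has number 4. Upk3b was then -0.66 and 0 genes passed, with 225 at an unadjusted p under 0.05 against 556; a random block gave -1.01 and 367. Same-numbered arrays did not deviate together (r -0.18, -0.20 and -0.55). With so few arrays these values cannot show whether they share more than a number, and the labels give only the number. Of 26 listed genes beside the markers, 11 kept their sign in all alternatives. Lrrn4, near the filter level, and Muc16, below it on most arrays labelled knockout, are limited by low signal.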
